A study of Mus musculus with 3 samples.

Results

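The *Hox* genes of the mouse were followed through the cell classes of the adult diaphragm. Members were all gene symbols made of *Hox*, a cluster letter from a to d and a number, which gave 39 of the 32285 genes counted. In the 3 libraries together 34 of them had at least 1 unique molecular identifier (UMI, the tag that marks a captured mRNA molecule), and the 39 genes held 16335 of 102759615 UMIs. *Hoxa11*, *Hoxc11*, *Hoxc12*, *Hoxd11* and *Hoxd12* had none, a count that allows up to 3 UMIs in all 12275 cells.

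The libraries are single-cell RNA-Seq of diaphragm muscle from male mice on a C57BL/6J background, a tissue in which diet-induced obesity and its fibro-adipogenic progenitors (FAPs, the mesenchymal cells between the muscle fibers) were the subject. Rib and tendon ends of the muscle were cut away first. WT CD stands for wild-type mice kept on control chow, WT HFD for wild-type mice given a high-fat diet with 45% of calories from lipid, and KO HFD for whole-body *Thbs1*-/- mice (B6.129S2-Thbs1tm1Hyn/J) on the same high-fat diet. All animals ate normal chow until 2 months of age, and the diets then ran for 6 months. The tissue was digested with collagenase II to free its mononuclear cells, and dead cells were removed by flow cytometry. Each group is 1 library from 2 pooled mice, so a difference between groups has no replicate check and no test. As a whole-body knockout by its label, the KO library should carry the deletion in every cell type. *Thbs1* itself was counted at 193 CPM in FAP-like cells of the WT CD library, 232 CPM in WT HFD and 229 CPM in KO HFD. These 3′ tags can lie outside the deleted part of the gene, so its count does not check the label.

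The WT CD library held 34312860 UMIs in 4132 cells, the WT HFD library 31967976 UMIs in 3774 cells and the KO HFD library 36478779 UMIs in 4369 cells. *Hox* genes took 151, 166 and 160 CPM (UMI counts scaled to a library total of 1000000) in that order. Between 9 and 14 barcodes of a library also occurred in another one. Cells were clustered without the *Hox* genes and named from marker genes, with the ending "-like". The FAP-like class held 6648 cells, 2242 from WT CD, 1993 from WT HFD and 2413 from KO HFD, and expressed its markers *Pdgfra* at 415 CPM and *Dcn* at 15508 CPM. Other classes of at least 100 cells were muscle stem cell (MuSC)-like (1178 cells), T or NK cell-like (228), macrophage-like (1093), endothelial-like (715), dendritic cell-like (230), B cell-like (705), lymphatic-like (274), mesothelial-like (183) and mural cell-like (131). The defining markers were present in each class, such as *Pax7* at 278 CPM in MuSC-like cells, *Prox1* at 600.1 CPM in lymphatic-like cells and *Msln* at 859 CPM in mesothelial-like cells.

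*Hox* genes encode homeodomain transcription factors that give cells their position along the head-to-tail axis of the embryo. They lie in 4 clusters, and within a cluster the genes with low numbers are generally expressed from more anterior levels than those with high numbers. Adult fibroblasts, muscle and vessels keep part of this pattern as a record of where they arose. The diaphragm is built by cells from cervical somites, which give the muscle, and by the pleuroperitoneal folds, which give its connective tissue. Its surface is covered by mesothelium.

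All 39 genes were found in the GRCm38 annotation (GENCODE vM21). The *Hoxa* cluster has 11 genes in 105.3 kb on chromosome 6, the *Hoxb* cluster 10 genes in 173.9 kb on chromosome 11, the *Hoxc* cluster 9 genes in 115.8 kb on chromosome 15 and the *Hoxd* cluster 9 genes in 96.8 kb on chromosome 2. *Hoxc5* and *Hoxc10*, and *Hoxd3* and *Hoxd4*, share some exonic bases on 1 strand, but the last 500 bases of no *Hox* gene, where the reads come from, overlapped another gene's exon on the same strand. *Hoxa5* (ENSMUSG00000038253) spans chr6:52201754-52204587, *Hoxd8* (ENSMUSG00000027102) chr2:74704615-74707933, *Hoxd9* (ENSMUSG00000043342) chr2:74697727-74700208 and *Hoxd10* (ENSMUSG00000050368) chr2:74691924-74695105. The promoters of 3 members whose counts differed between classes are shown as examples. They are the 250 bases before the RefSeq start in GRCm38, written 5′ to 3′ on the strand of the gene, with the homeodomain core TAAT, or its reverse complement ATTA, in capitals. *Hoxa5* lies on the minus strand (promoter chr6:52204588-52204837), and *Hoxd8* (chr2:74704365-74704614) and *Hoxd10* (chr2:74691641-74691890) on the plus strand.
Hoxa5: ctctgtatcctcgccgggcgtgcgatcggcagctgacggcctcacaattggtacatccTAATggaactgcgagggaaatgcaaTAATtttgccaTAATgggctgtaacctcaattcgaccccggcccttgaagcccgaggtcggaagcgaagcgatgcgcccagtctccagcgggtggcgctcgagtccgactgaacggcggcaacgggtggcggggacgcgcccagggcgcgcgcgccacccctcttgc
Hoxd8: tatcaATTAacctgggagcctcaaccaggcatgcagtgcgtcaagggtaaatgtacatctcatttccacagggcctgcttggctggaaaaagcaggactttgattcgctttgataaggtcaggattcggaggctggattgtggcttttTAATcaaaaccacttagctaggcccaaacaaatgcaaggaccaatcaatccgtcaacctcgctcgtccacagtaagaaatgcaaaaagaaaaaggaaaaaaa
Hoxd10: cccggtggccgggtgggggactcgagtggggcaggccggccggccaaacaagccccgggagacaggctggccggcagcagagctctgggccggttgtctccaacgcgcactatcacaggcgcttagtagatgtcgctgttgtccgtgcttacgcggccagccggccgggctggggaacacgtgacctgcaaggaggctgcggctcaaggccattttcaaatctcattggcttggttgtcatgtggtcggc

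The window of *Hoxa5* held 3 matches of the core and that of *Hoxd8* held 2, while that of *Hoxd10* held none. The core occurred in 54.9% of the 32851 mouse promoters of this length and in 18 of the 24 *Hox* entries, which covered 22 of the genes. The composite PBX-HOX motif TGATNNAT was found in 7.68% of all promoters and 4 *Hox* entries, and the MEIS motif TGACAG in 15.9% and 2 entries, both strands searched. These are matches of letters in a window and show no binding.

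In FAP-like cells the *Hox* levels ended sharply along each cluster. Levels are CPM of the UMIs summed over the cells of a class, and since a molecule is counted once at its 3′ end, they do not grow with transcript length. In a class sum, fewer molecules per cell and fewer cells with the gene cannot be told apart. Of the 39 members 8 reached 10 CPM in FAP-like cells, 10 lay between 1 and 10 CPM, and 21 lay under 1 CPM. Genes numbered 1 to 4 gave 53.6% of the *Hox* UMIs of FAP-like cells, those numbered 5 to 8 gave 44.1%, and those numbered 9 to 13 gave 2.38%. The 12 members numbered 10 to 13 together had 53 UMIs in all cells, of which *Hoxd10* held all but 14.

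*Hoxb2*, best known for its part in patterning the hindbrain, had the highest level in FAP-like cells, at 31.4 CPM in WT CD, 26.4 CPM in WT HFD and 25.7 CPM in KO HFD. *Hoxa5*, a regulator of cervical and upper thoracic vertebrae and of lung development that is also needed for phrenic motor neurons, followed at 23.3, 22.3 and 22.7 CPM, and *Hoxb4*, which helps pattern the neck vertebrae, at 22.6, 22.6 and 22.1 CPM. With libraries summed, *Hoxb2* was above *Hoxa5* beyond counting error, whereas *Hoxa5* (22.8 CPM, exact Poisson 95% interval 21.6 to 24.1) and *Hoxb4* (22.4 CPM, 21.2 to 23.6) were not separated.

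Next in order were *Hoxc4* (19.6, 17.0 and 17.6 CPM in WT CD, WT HFD and KO HFD), *Hoxa3*, which is needed for the thymus and parathyroid (17.1, 16.2 and 15.5 CPM), and *Hoxd8* (14.6, 13.8 and 13.8 CPM). *Hoxa7* (10.5, 13.6 and 13.5 CPM) and *Hoxb3* (13.1, 10.6 and 11.1 CPM) closed the list of members above 10 CPM, and these last genes were not separated from each other with libraries summed. The profile dropped steeply from a member to its neighbor in places: *Hoxa6* stood at 0.42 CPM between *Hoxa5* at 22.8 CPM and *Hoxa7* at 12.6 CPM. *Hoxd9* reached 4.12 CPM and *Hoxd10* 0.0168 CPM, which is 1 UMI.

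Further members that passed 10 CPM in another class were lower in FAP-like cells. *Hoxc6* stood at 8.06, 9.97 and 10.9 CPM in WT CD, WT HFD and KO HFD, *Hoxc5* at 9.58, 8.32 and 8.85 CPM, and *Hoxb7* at 7.05, 8.26 and 8.47 CPM. *Hoxa4* was at 5.12, 4.91 and 5.76 CPM and *Hoxd4* at 2.94, 2.13 and 2.38 CPM. *Hoxc6* was lowest in WT CD and *Hoxd4* highest there.

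**Figure D1:**
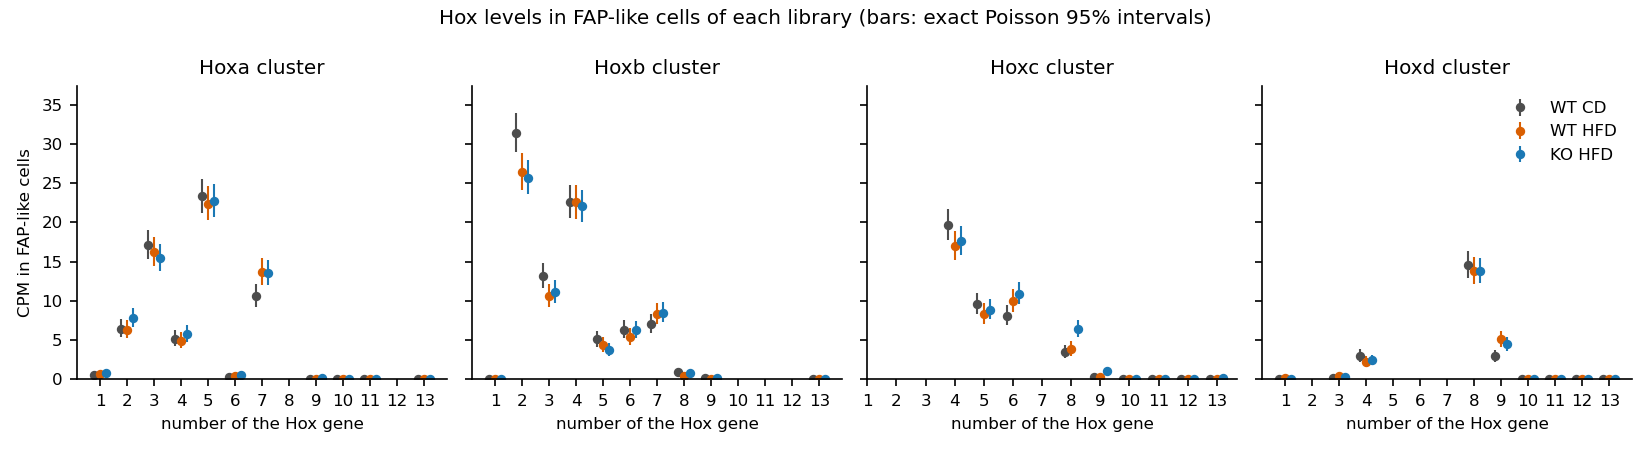
CPM of each *Hox* gene in FAP-like cells (vertical axis) by its number in the cluster (horizontal axis), with a panel per cluster, a color per library and bars for exact Poisson 95% intervals. *Hoxb2* is highest at 25.7 to 31.4 CPM, *Hoxa6* stands low between *Hoxa5* and *Hoxa7*, and genes numbered 10 to 13 lie at or near 0.

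Other classes with a *Hox* program used the clusters in different proportions. In mesothelial-like cells the *Hoxa* cluster gave 73.1% of the *Hox* UMIs (exact binomial 95% interval 69.6 to 76.3), against 31.1% (30.3 to 31.9) in FAP-like cells. In lymphatic-like cells the *Hoxd* cluster gave 54.9% (50.8 to 58.9), against 10.1% (9.57 to 10.6) in FAP-like, 14.5% in endothelial-like, 14.8% in mural cell-like, 0.51% in MuSC-like and 0.288% in mesothelial-like cells. The *Hoxc* cluster gave 27.8% in MuSC-like and 20.1% in FAP-like cells but 1.12% (0.451 to 2.29) in endothelial-like and 2.15% (1.15 to 3.65) in lymphatic-like cells. The *Hoxb* cluster gave 46.2% in endothelial-like and 44.8% in mural cell-like cells. The endothelial markers *Flt1*, *Pecam1* and *Ptprb* summed to 1729 CPM in mural cell-like and 3757 CPM in endothelial-like cells. The part of endothelial RNA in the mural cell-like shares was not tested.

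By library, the *Hoxd* share of lymphatic-like cells was 57.4% in WT CD, 57.1% in WT HFD and 48.5% in KO HFD, and the *Hoxa* share of mesothelial-like cells was 74.1%, 71.3% and 75.1%. In FAP-like cells the *Hoxd* share was 9.76%, 10.6% and 9.97%. All 3 lymphatic-like values lay above the *Hoxd* share of every other class shown in the plot of cluster shares, and all 3 mesothelial-like values above the *Hoxa* share of every other class there. The *Hoxc* share of MuSC-like cells was not as steady, at 20.5%, 24.7% and 32.9%, against 19.3%, 19.4% and 21.3% in FAP-like cells, and in WT CD its interval (15.3 to 26.5) covered the FAP-like value. In endothelial-like cells the *Hoxb* share lay apart from the *Hoxa* share beyond counting error in WT HFD (48.2% and 31.1%), and the intervals of both overlapped in WT CD (47.3% and 41.4%) and KO HFD (41.9% and 43.1%).

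**Figure D2:**
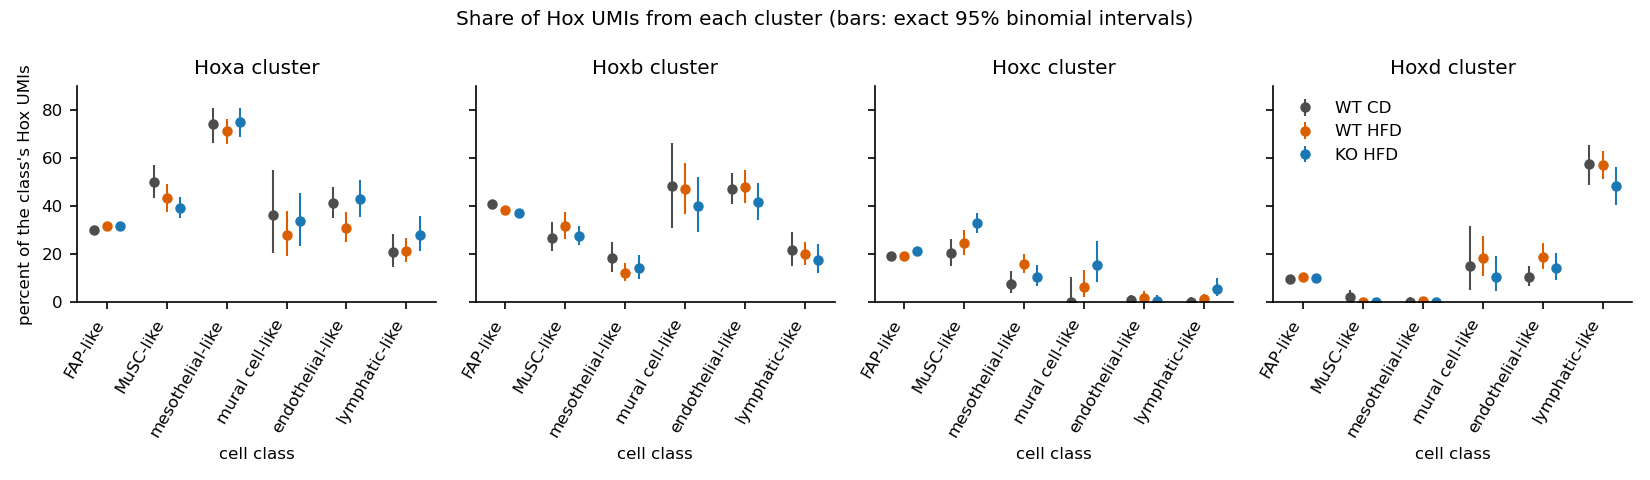
Percent of a class's *Hox* UMIs that came from each cluster (vertical axis) in 6 cell classes (horizontal axis), with a point per library and bars for exact binomial 95% intervals, which cover counting error alone. *Hoxa* leads in mesothelial-like cells at 71.3 to 75.1%, and *Hoxd* in lymphatic-like cells at 48.5 to 57.4%.

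To test single genes, UMIs were summed per library and class and FAP-like cells were compared with 6 other classes in edgeR's quasi-likelihood test with library as a block, where p-values were adjusted by Benjamini-Hochberg over all 10749 genes tested. The 3 libraries served as the repeats of a class, although they differ in diet and genotype. A total of 13 members passed the filter on low counts, and since a gene can pass it through the class where it is high, the counts of calls describe those 13 and are not support for a difference of *Hox* genes as a group.

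MuSC-like cells, the resident stem cells of the muscle fibers, almost lacked the *Hoxd* cluster. *Hoxd8* gave 2 UMIs in them, 0.307 CPM against 14.1 CPM in FAP-like cells, a ratio of 45.9 with a counting interval of 12.7 to 379 (adjusted p = 1.51e-07, edgeR). *Hoxd4* had no UMI in MuSC-like cells of any library and was at least 5.41-fold higher in FAP-like cells when 3 UMIs are allowed for the class (adjusted p = 0.00108, edgeR). *Hoxb7* was also higher in FAP-like cells, as was *Hoxb2*, which stood at 8.36, 11 and 10.4 CPM in MuSC-like cells of WT CD, WT HFD and KO HFD, under all 3 FAP-like values.

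*Hoxa7*, a thoracic patterning gene, went the other way, at 25.6, 37.4 and 31.6 CPM in MuSC-like cells against 10.5, 13.6 and 13.5 CPM in FAP-like cells (log2 FAP-like over MuSC-like -1.61, SE 0.20, adjusted p = 5.01e-08, edgeR). *Hoxc6*, which acts in motor neurons and the rib region, was lower in FAP-like cells by 0.85 on the log2 scale (SE 0.28, adjusted p = 0.0120, edgeR), but its WT CD values, 8.06 CPM in FAP-like and 8.36 CPM in MuSC-like cells, lay close together, and the call was lost in 4 of 8 alternatives. Its adjusted p was 0.248 without the KO HFD library, 0.110 with no TMM scaling and 0.0841 in gated cells by edgeR, and 0.144 by DESeq2. In all, 6 of the 13 members were called higher in FAP-like cells, where 30.6% of all genes were, and 2 lower, where 26.5% of all genes were.

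Mesothelial-like cells had the highest level of any member in any class of at least 100 cells. *Hoxa5* reached 167 CPM in WT CD, 150 CPM in WT HFD and 158 CPM in KO HFD, and the class exceeded FAP-like cells 6.85-fold (counting interval 6.02 to 7.75, log2 FAP-like over mesothelial-like -2.68, SE 0.18, adjusted p = 6.77e-13, edgeR). A *Hoxa5* UMI was found in 65.6% of mesothelial-like cells (exact interval 58.2 to 72.4) and in 15.1% of FAP-like cells, or in 35.9% and 6.05% once each cell was thinned to 3000 UMIs. In B cell-like cells, where the gene stood at 1.44 CPM, the share was 1.42%, or 0.754% thinned. The median depth was 9956 UMIs in mesothelial-like, 8611.5 in FAP-like and 8384 in B cell-like cells.

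*Hoxa4* and *Hoxa7*, of the same cluster, were higher in mesothelial-like cells as well. *Hoxa6*, which lies between *Hoxa5* and *Hoxa7* and was too low to be tested, stood at 0.50 CPM there and 0.42 CPM in FAP-like cells. *Hoxa4* stood at 20.1, 13.7 and 16.3 CPM against 5.12, 4.91 and 5.76 CPM in FAP-like cells (adjusted p = 0.00124, edgeR). *Hoxa7* was at 24.2 CPM in WT CD, 61.1 CPM in WT HFD and 74.3 CPM in KO HFD, each above the 10.5 to 13.6 CPM of FAP-like cells (adjusted p = 3.74e-08 for the difference between the classes, edgeR).

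*Hoxc6* set a boundary inside its cluster in these cells. It gave 1 UMI, 0.5 CPM against 9.66 CPM in FAP-like cells (ratio 19.3, counting interval 3.45 to 764, adjusted p = 0.000355, edgeR), while *Hoxc4* reached 26.5 CPM and *Hoxc5* 15.5 CPM and neither passed the test. *Hoxd4* and *Hoxd9* had no UMI in mesothelial-like cells, and *Hoxd8* had 2. *Hoxd9* was called higher in FAP-like cells, but not without the WT HFD library, and *Hoxd4* lost its call whichever library was left out. Together 6 of 13 members were called higher in FAP-like cells (17% of all genes) and 3 lower (18.1% of all genes), and without the WT HFD library, which holds 87 of the 183 mesothelial-like cells, the count was 5 in place of 9.

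Lymphatic-like cells line the lymph vessels that drain the abdominal cavity through the diaphragm. *Hoxd9* reached 91.8 CPM in WT CD, 86.0 CPM in WT HFD and 66.5 CPM in KO HFD in them, against 2.89, 5.07 and 4.42 CPM in FAP-like cells, and the groups did not overlap. The class exceeded FAP-like cells 19.8-fold (counting interval 16 to 24.3, log2 FAP-like over lymphatic-like -4.21, SE 0.31, adjusted p = 3.34e-11, edgeR). *Hoxd8*, its neighbor, stood at 86.7, 55.3 and 51.7 CPM against 14.6, 13.8 and 13.8 CPM (log2 -2.06, SE 0.28, adjusted p = 6.08e-07, edgeR). This contrast was added after the levels by class had been seen, so its p-values describe a difference already noticed.

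*Hoxd10*, a gene that takes part in lumbar and limb patterning, was counted nearly exclusively here, with 36 of its 39 UMIs, at 20.4, 25.9 and 11.1 CPM in WT CD, WT HFD and KO HFD. It did not pass the filter on low counts. With no such filter it was called (log2 FAP-like over lymphatic-like -8.14, adjusted p = 5.35e-20, edgeR), whereas DESeq2 gave an adjusted p of 0.274. *Hoxd4* was higher at 15.3, 24.7 and 12.9 CPM against 2.94, 2.13 and 2.38 CPM (adjusted p = 2.78e-05, edgeR). *Hoxd3*, which lies beside *Hoxd4* and was not tested, stood at 4.49 CPM here and 0.269 CPM in FAP-like cells.

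Lymphatic-like cells also had more *Hoxa7* (48.4, 60.1 and 55.4 CPM) and *Hoxb7* (25.5, 30.6 and 27.7 CPM) than FAP-like cells, where *Hoxb7* was at 7.05, 8.26 and 8.47 CPM. They had less *Hoxb2* (12.7, 7.07 and 5.54 CPM), *Hoxa3* and *Hoxc4*, and no UMI of *Hoxa4*, which was at least 3.14-fold higher in FAP-like cells. In the test 5 of 13 members were lower in FAP-like cells (18% of all genes) and 6 higher (20.2% of all genes). The stromal gene *Dcn* stood at 7.7% of its FAP-like level in lymphatic-like cells, and at 14.4% in those of KO HFD, where *Hoxc4* and *Hoxc5* were each at 5.54 CPM. Its part in the low *Hoxc* values was not tested. FAP-like cells had 1 UMI of *Hoxd10* in 6648 cells.

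**Figure D3:**
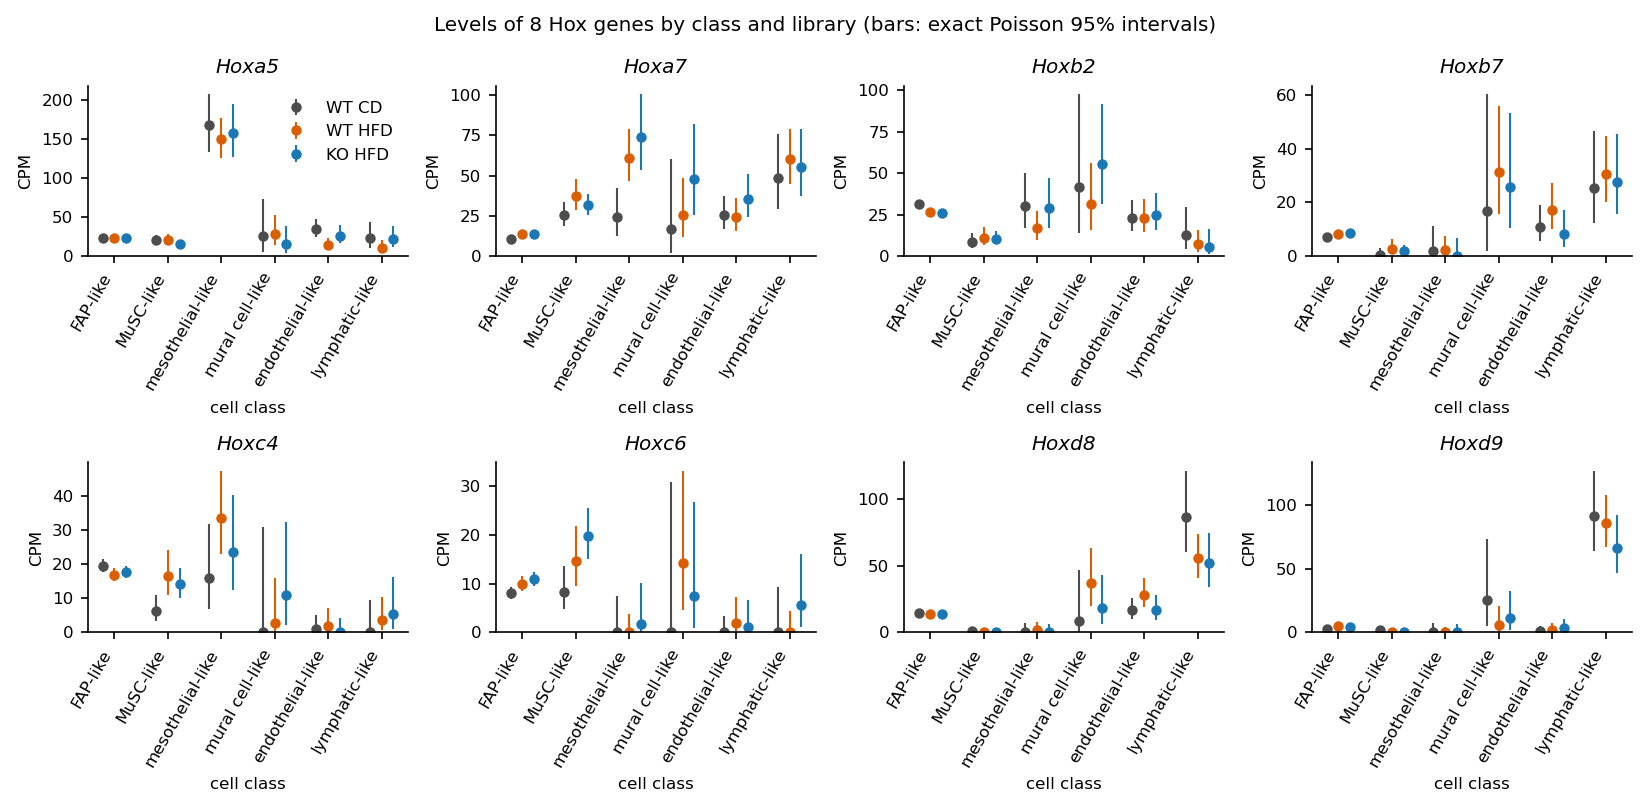
CPM of 8 *Hox* genes (vertical axes, each with its own scale) in 6 cell classes (horizontal axes), with a point per library and bars for exact Poisson 95% intervals. *Hoxa5* stands out in mesothelial-like cells at 150 to 167 CPM, *Hoxd9* in lymphatic-like cells at 66.5 to 91.8 CPM, and *Hoxc6* is near 0 in mesothelial-like, endothelial-like and, but for KO HFD, lymphatic-like cells.

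Endothelial-like cells, which line the blood vessels, nearly lacked the *Hoxc* cluster. *Hoxc5* had no UMI in any library and was at least 8.72-fold higher in FAP-like cells (adjusted p = 1.61e-05, edgeR). *Hoxc4* gave 3 UMIs, 1.02 CPM against 18.1 CPM (ratio 17.7, counting interval 6.03 to 85.8, adjusted p = 1.72e-07, edgeR), and *Hoxc6* also 3 (ratio 9.44, counting interval 3.21 to 45.9). Genes of the *Hoxa* and *Hoxb* clusters were counted in every library, with *Hoxb4* at 38.5, 36.1 and 28.5 CPM (adjusted p = 0.0563, edgeR) and *Hoxa7* at 25.7, 24.1 and 35.6 CPM (log2 FAP-like over endothelial-like -1.05, SE 0.24, adjusted p = 0.00045, edgeR).

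*Hoxd4* was higher in endothelial-like cells at 5.5, 10.0 and 8.31 CPM, a call lost without the WT HFD or the KO HFD library. *Hoxd9* stood at 0.916, 2.01 and 3.56 CPM in endothelial-like cells against 66.5 to 91.8 CPM in lymphatic-like cells, so the 2 kinds of vessel lining did not overlap in it. *Hoxb9*, singled out after its values were seen, gave 8.19 CPM here and 0.084 CPM in FAP-like cells. It did not pass the filter on low counts. Of the 13 members 4 were called higher in FAP-like cells (29% of all genes) and 2 lower (25.8% of all genes). Without the KO HFD library the count was 3 in place of 6. Among the 4, *Hoxa3* (16.2 CPM in FAP-like and 10.6 CPM in endothelial-like cells) kept its call in 4 of 10 alternatives.

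Mural cell-like cells, the contractile cells around vessels, were few, with 27, 61 and 43 cells in WT CD, WT HFD and KO HFD. *Hoxb7* was at 16.8, 31.3 and 25.9 CPM and *Hoxa7* at 16.8, 25.6 and 48.1 CPM, both above the FAP-like values of all libraries (adjusted p = 0.00686 and 0.0172, edgeR). All 3 endothelial markers went with them. *Flt1*, *Pecam1* and *Ptprb* summed to 1491, 2215 and 1203 CPM in mural cell-like cells of WT CD, WT HFD and KO HFD, with *Flt1* the most abundant at 626 CPM over all libraries, against 3812, 3949 and 3458 CPM in endothelial-like cells and 9.89, 10.6 and 12.7 CPM in FAP-like cells. Endothelial-like cells held 28.0 CPM of *Hoxa7* and 12.3 CPM of *Hoxb7*, and the part of endothelial RNA in the mural cell-like values was not tested. *Hoxc4*, at 0, 2.85 and 11.1 CPM, was called higher in FAP-like cells. The 1 call higher in FAP-like cells (15.1% of all genes) and the 2 lower (14.5% of all genes) fell to 0 without the WT HFD library and to 0 when cells were gated by marker UMIs in place of clusters, and then *Hoxb7* turned in direction (log2 FAP-like over mural cell-like 1.08).

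In blood-derived classes the 39 genes summed to 31.2 CPM in T or NK cell-like and 16.3 CPM in macrophage-like cells. The sum was 15.4 CPM in dendritic cell-like and 10.7 CPM in B cell-like cells. It was 209 CPM in FAP-like, 150 CPM in MuSC-like and 214 CPM in endothelial-like cells. In mural cell-like, lymphatic-like and mesothelial-like cells it was 274, 339 and 347 CPM. By library the MuSC-like sum was 112 CPM in WT CD, 171 CPM in WT HFD and 163 CPM in KO HFD. All 13 members tested were higher in FAP-like than in macrophage-like cells (34.6% of all genes were) and 0 lower (33.6% of all genes), with log2 differences between 2.20 for *Hoxb4* and 5 for *Hoxd8*. The *Hox* sum of B cell-like cells was 5.15% of that in FAP-like cells, and *Dcn*, which B cells do not make, stood at 3.04% of its FAP-like level there. In macrophage-like cells these values were 7.79% and 3.16%, in dendritic cell-like cells 7.38% and 6.49%, and in T or NK cell-like cells 15% and 7.96%. The sum in T or NK cell-like cells rested on 45 UMIs and on the KO HFD library, at 21.5, 12 and 53 CPM in WT CD, WT HFD and KO HFD, and was 17.9 CPM without KO HFD. In KO HFD alone it was 25.1% of the FAP-like level, where *Dcn* was at 8.36%. How much of the low *Hox* count is RNA released by other cells was not tested.

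At least 1 *Hox* UMI was seen in 77.0% of FAP-like cells (exact interval 75.9 to 78), with a mean of 1.58 different *Hox* genes per cell and at most 9. After thinning to 3000 UMIs, which left out 168 shallower cells, the share was 44.8%, against 64.4% in lymphatic-like, 59.7% in mesothelial-like, 53.8% in mural cell-like, 44.5% in endothelial-like and 31.8% in MuSC-like cells. The unthinned shares were 80.3%, 89.1%, 61.1%, 49.2% and 47.1% in that order. In B cell-like cells the share was 2.41% thinned and 7.23% unthinned. Even the member with the highest level, *Hoxb2*, had a UMI in 20.8% of FAP-like cells, or 8.35% thinned, so a cell without one cannot be taken as a cell without the transcript.

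**Figure D4:**
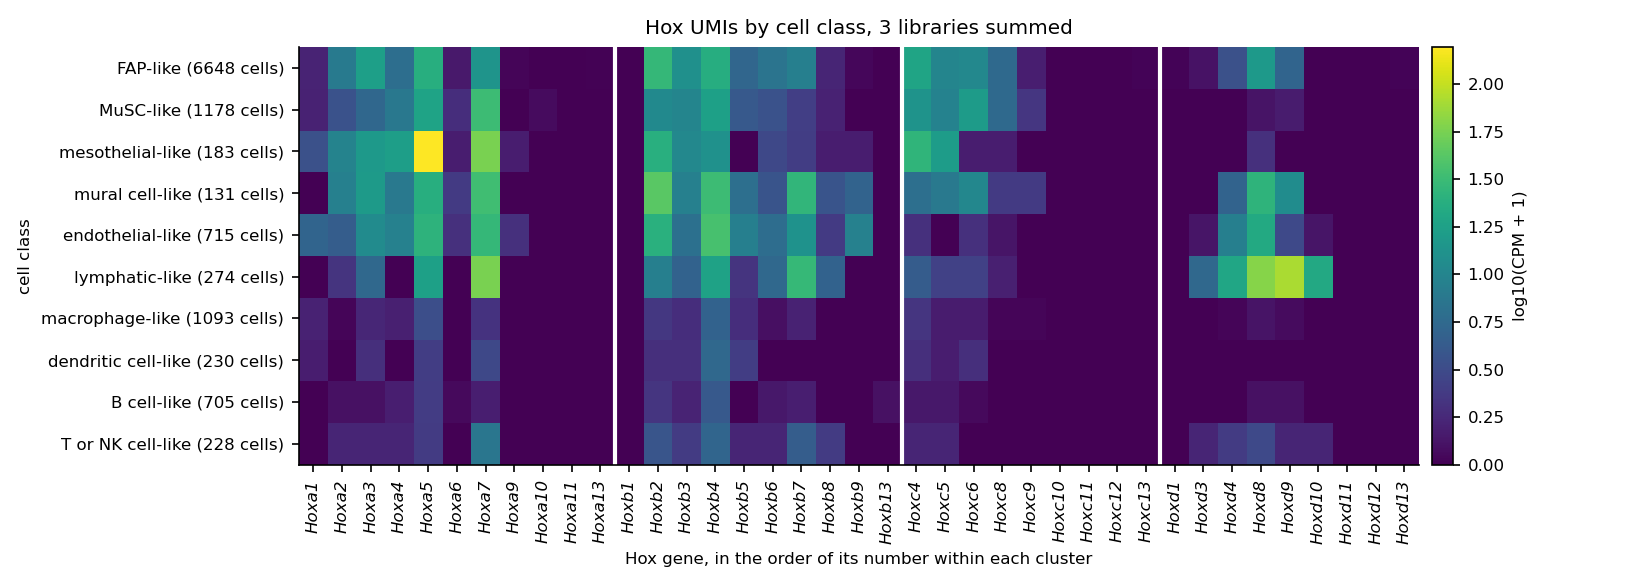
Heat map of log10(CPM + 1) for all 39 *Hox* genes (horizontal axis, clusters parted by white lines) in the 10 classes of at least 100 cells (vertical axis, with the number of cells), libraries summed. The brightest field is *Hoxa5* in mesothelial-like cells at 156 CPM, *Hoxd8* and *Hoxd9* stand out in lymphatic-like cells at 61.1 and 81.3 CPM, and the 4 blood-derived classes at the bottom are dark.

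The likeness of members was measured over the 10 classes. The Spearman correlation of class levels had a median of 0.733 over the 21 pairs of named members within a cluster and 0.503 over the 84 pairs from different clusters. The ranges overlapped, with 0.426 to 0.925 within a cluster and -0.15 to 0.964 between clusters. The pair most alike of all was *Hoxb7* and *Hoxd8* (0.964), from different clusters, and 3 pairs within a cluster lay under 0.503. Classes share libraries, and the 4 blood-derived classes have low counts of all named members, so these values are a description.

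FAP states differed in most *Hox* genes that could be tested. FAP-like cells were divided into 5 states by k-means on genes that left out the *Hox* genes. State 3 is FAP1-like (*Cxcl14*, *Mme*; 1273 cells), state 4 FAP2-like (*Cmah*, *Dact2*; 1110 cells) and state 5 FAP4-like (*Fmod*, *Sfrp2*, *Tnmd*; 1048 cells). States 1 (1862 cells) and 2 (1355 cells) are called by their leading genes *Postn* and *Sfrp4*, and *C4b* and *Il6*. In edgeR's test of any difference among states, 16 of 18 members that passed the filter were called, and so were 62.4% of the 11620 genes tested. The median range between the highest and lowest state was 0.95 on the log2 scale for the members and 0.55 for all genes. Such a range grows with counting error, and all genes were not matched to the members for level. The 2 medians therefore cannot show that the members vary more.

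*Hoxb3*, *Hoxa3*, *Hoxb4* and *Hoxc4* were highest in the FAP4-like state. *Hoxb3*, which acts in the hindbrain and pharyngeal arches, stood at 19.8, 20.8 and 23.9 CPM there in WT CD, WT HFD and KO HFD, above its range of 7.65 to 13.5 CPM over the other states and libraries (adjusted p = 2.93e-05, edgeR). *Hoxa3* was at 23.9, 28.4 and 26.2 CPM against at most 21.1 CPM elsewhere (adjusted p = 2.22e-05), and *Hoxb4* at 30.3, 35.2 and 37.3 CPM (adjusted p = 1.78e-06, edgeR), with the FAP1-like state next at 28.2, 30.5 and 25.4 CPM. *Hoxc4* was at 25.5, 28.8 and 24.9 CPM against at most 20.1 CPM elsewhere (adjusted p = 0.00279), a call lost without the WT HFD library (adjusted p = 0.0955, edgeR).

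*Hoxa7* was highest in the *Postn* and *Sfrp4* state, at 14.8, 20.1 and 19.5 CPM, and in the FAP2-like state, at 13.1, 16.3 and 18.7 CPM, and stood at 7.97, 6.78 and 6.54 CPM in the FAP4-like state (adjusted p = 8.41e-08, edgeR). The FAP4-like state was lowest with libraries summed, but in WT CD the *C4b* and *Il6* state (6.70 CPM) and the FAP1-like state (7.04 CPM) were lower. *Hoxb7* shared this order at the top, with 10.9 and 10.2 CPM in those states and 5.19 to 5.77 CPM in the others, libraries summed. *Hoxb2* parted the states differently. It was low in the *C4b* and *Il6* state, at 18.9, 16.5 and 17.0 CPM, and in the FAP2-like state, at 24.8, 18.7 and 19.7 CPM, and all libraries of the other states lay between 29.7 and 38.6 CPM (adjusted p = 9.91e-09, edgeR).

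*Hoxc8*, a gene of the thoracic level that was singled out after its values were seen, had the widest range. The FAP1-like state gave 4 UMIs of it, 0.407 CPM, with 0.67 CPM in WT CD, none in WT HFD and 0.546 CPM in KO HFD. The other states stood at 7.01 CPM (*Postn* and *Sfrp4*), 4.13 CPM (*C4b* and *Il6*), 5.68 CPM (FAP2-like) and 3.98 CPM (FAP4-like). The range was 3.12 on the log2 scale (adjusted p = 6.57e-05, edgeR), and all 12 library values of those 4 states, between 2.12 and 10.2 CPM, lay above the FAP1-like ones. With libraries summed, *Hoxd8* was lowest in the FAP4-like state, at 11.2, 9.75 and 6.54 CPM by library (adjusted p = 0.00142, edgeR), although the FAP1-like state was lower in WT CD, at 10.4 CPM. This call was lost without the KO HFD library.

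*Hoxa4* and *Hoxd4* were not called among states. *Hoxa5* was called (adjusted p = 0.0228, edgeR), but its values spread widely within a state, such as 10.1, 19.5 and 24.8 CPM in the FAP1-like state, and the call was lost without the WT HFD library, with 4 states and in DESeq2. The number of calls was 10 without the KO HFD library and 11 in DESeq2.

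**Figure D5:**
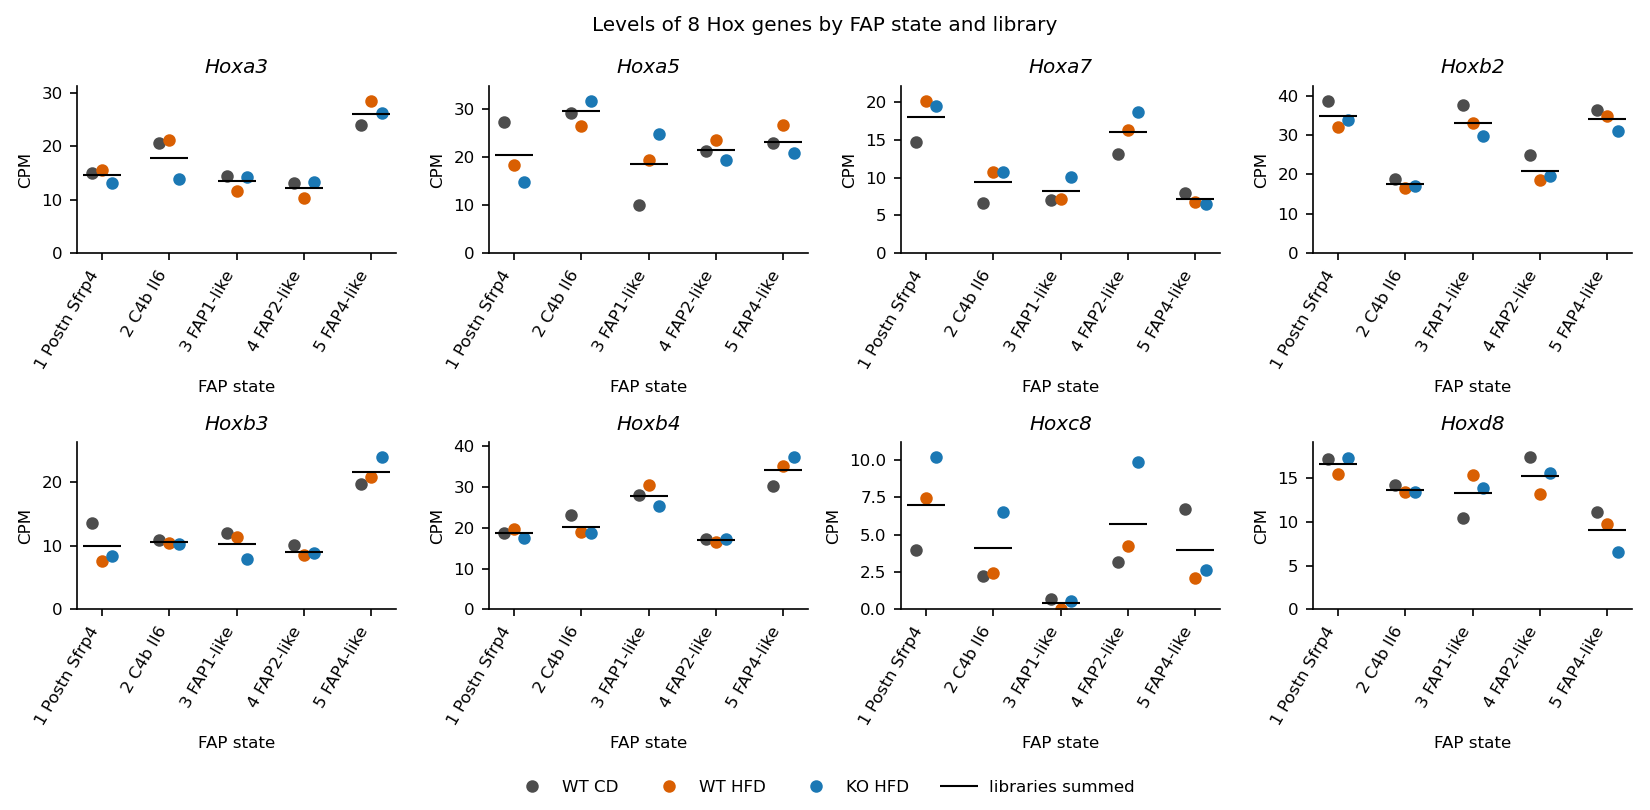
CPM of 8 *Hox* genes (vertical axes, each with its own scale) in the 5 FAP states (horizontal axes), with a point per library and a black dash for the libraries summed. *Hoxa3*, *Hoxb3* and *Hoxb4* are highest in the FAP4-like state, *Hoxa7* in state 1 and the FAP2-like state, and *Hoxc8* lies between 0 and 0.67 CPM in the FAP1-like state.

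In FAP-like cells the 39 genes summed to 211 CPM in WT CD, 203 CPM in WT HFD and 211 CPM in KO HFD. Of 17 members with at least 100 UMIs in the libraries compared, 1 passed 1.5-fold between WT HFD and WT CD, when 2.73% of all 10960 such genes did, and 1 between KO HFD and WT HFD, when 1.96% of all genes did. The median size of the difference over these members was 0.21 on the log2 scale between WT HFD and WT CD, against 0.136 over all genes, and 0.0684 between KO HFD and WT HFD, against 0.111. These medians also hold counting error, which is larger in genes with fewer UMIs, and all genes were not matched to the members for level. There is no test here, since each group is 1 library.

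*Hoxd9* was the member past 1.5-fold on HFD, at 2.89 CPM in WT CD and 5.07 CPM in WT HFD (log2 ratio 0.81, counting interval 0.32 to 1.31), and KO HFD stood near WT HFD at 4.42 CPM. *Hoxa7* was higher in WT HFD than in WT CD beyond counting error (log2 ratio 0.37, interval 0.10 to 0.64), and *Hoxb2* (-0.25, -0.42 to -0.08) and *Hoxb3* (-0.31, -0.58 to -0.04) were lower. Between KO HFD and WT HFD, *Hoxc8* was the member past 1.5-fold, at 6.37 against 3.84 CPM (log2 ratio 0.73, interval 0.31 to 1.17), and its neighbor *Hoxc9* was also higher beyond counting error, on 21 against 6 UMIs. For *Hoxa5* the log2 ratio was -0.06 (-0.26 to 0.13) for WT HFD against WT CD and 0.03 (-0.17 to 0.22) for KO HFD against WT HFD. Both ratios share the WT HFD library.

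The same 2 genes passed 1.5-fold when the 5 states were given equal weight in each library. Differences between mice, of which each library pools 2, cannot be told apart from those of diet and genotype, and the counting intervals leave them out. In MuSC-like cells *Hoxb4* (9.93, 22.7 and 17.5 CPM) and *Hoxc4* (6.27, 16.6 and 14.1 CPM) were lower in WT CD than in WT HFD beyond counting error. So was *Hoxa7* in mesothelial-like cells, with 12 UMIs in WT CD and 58 in WT HFD (log2 WT HFD over WT CD 1.34, counting interval 0.43 to 2.37). In endothelial-like cells *Hoxa5* was higher in WT CD, at 34.8 CPM, than in WT HFD, at 14.1 CPM, and stood at 26.1 CPM in KO HFD. In these comparisons no other member with at least 20 UMIs outside FAP-like cells had an interval that left out 0.

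Beside the members stand lists of related genes, whose counts are to be read against the shares of all 10749 genes called. Higher and lower in FAP-like cells were 30.6% and 26.5% of all genes against MuSC-like, 17% and 18.1% against mesothelial-like, 15.1% and 14.5% against mural cell-like, 29% and 25.8% against endothelial-like, 20.2% and 18% against lymphatic-like and 34.6% and 33.6% against macrophage-like cells. The median log2 difference of all genes was 0.08 against MuSC-like and 0.05 against lymphatic-like cells.

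Of 14 listed noncoding RNAs from the clusters 5 could be tested, of which 1 was higher and 2 lower in FAP-like than in MuSC-like cells, 1 and 2 against mesothelial-like, 0 and 4 against mural cell-like, 0 and 4 against endothelial-like, 2 and 2 against lymphatic-like and 4 and 0 against macrophage-like cells. Of all genes 15.1% and 14.5% were higher and lower against mural cell-like cells, and 29% and 25.8% against endothelial-like cells. The median log2 difference of the noncoding RNAs was -1.52 against lymphatic-like cells. Against MuSC-like cells it was 0.79 as fitted and -0.48 with the 2 RNAs without a UMI there set at 3 counts. *Hotairm1*, which lies at the anterior end of the *Hoxa* cluster, was at 16.8 CPM in FAP-like cells and higher in mesothelial-like (61.1 CPM), endothelial-like (59.7 CPM) and mural cell-like cells (56.7 CPM), and lower in lymphatic-like cells (4.49 CPM, log2 FAP-like over lymphatic-like 1.94, SE 0.38, adjusted p = 0.000141, edgeR). Mural cell-like cells also held endothelial markers, and the part of endothelial RNA in their *Hotairm1* value was not tested. *Hoxd3os1* was at 5.34 CPM in FAP-like and 24.1 CPM in lymphatic-like cells and had no UMI in MuSC-like and mesothelial-like cells. *Hoxb3os* stood at 6.60 CPM in FAP-like and 20.4 CPM in MuSC-like cells. *Hotair*, *Hottip* and *Hoxa11os*, from the posterior parts of the clusters, had no UMI in any cell. *Halr1* was at 32.4 CPM in endothelial-like and 0.134 CPM in FAP-like cells. These last 4 were singled out after their values were seen.

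Homeodomain cofactors of the TALE class bind DNA together with HOX proteins. Of 11 listed, 8 were tested, and 4 were higher and 1 lower in FAP-like than in endothelial-like cells, 3 and 1 against lymphatic-like, 1 and 2 against mesothelial-like, 3 and 3 against MuSC-like, 3 and 0 against mural cell-like and 5 and 3 against macrophage-like cells. The 3 and 3 against MuSC-like cells stood beside 30.6% and 26.5% of all genes, and the median of the list was -0.09 on the log2 scale there and 0.04 against lymphatic-like cells, close to that of all genes. *Meis2* was at 102 CPM in FAP-like, 261 CPM in mesothelial-like, 133 CPM in lymphatic-like and 6.14 CPM in endothelial-like cells (log2 FAP-like over endothelial-like 4.16, SE 0.24, adjusted p = 7.1e-15, edgeR). *Meis1* was at 27.9, 69.6, 2.8 and 3.41 CPM in the same order.

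Retinoic acid, which sets *Hox* expression in the embryo, is made by ALDH1A enzymes. The list of its pathway had 11 of 18 genes tested, of which 9 were higher and 0 lower in FAP-like than in MuSC-like cells, where 30.6% and 26.5% of all genes were, and 2 and 2 against mesothelial-like cells, where 17% and 18.1% were. The median of the list was 1.04 on the log2 scale against MuSC-like cells, where that of all genes was 0.08. *Aldh1a2*, its main embryonic enzyme, was at 40.6 CPM in FAP-like, 218 CPM in mesothelial-like (adjusted p = 5.46e-09, edgeR) and 81.7 CPM in macrophage-like cells. *Aldh1a1* was at 62.8 CPM in FAP-like and 205 CPM in mesothelial-like cells. Against endothelial-like, lymphatic-like, mural cell-like and macrophage-like cells 5 and 2, 7 and 0, 6 and 1, and 5 and 4 genes of the list were higher and lower in FAP-like cells. The 7 and 0 against lymphatic-like cells stood beside 20.2% and 18% of all genes, with a median of 2.42 against 0.05. *Cdx2* and *Cdx4* of this list, which switch on posterior *Hox* genes in the embryo, had no UMI (singled out after their values were seen).

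Polycomb and trithorax proteins keep *Hox* genes off or on. Of 17 tested genes of that list 0 were higher and 11 lower in FAP-like than in MuSC-like cells, 4 and 2 against mesothelial-like, 0 and 1 against mural cell-like, 4 and 6 against endothelial-like, 0 and 5 against lymphatic-like and 4 and 6 against macrophage-like cells. Of all genes 30.6% were higher and 26.5% lower against MuSC-like cells, and 20.2% and 18% against lymphatic-like cells. The median of the list was -0.60 on the log2 scale against MuSC-like and -0.30 against lymphatic-like cells, where those of all genes were 0.08 and 0.05. The counts against endothelial-like, macrophage-like and mesothelial-like cells were near the shares of all genes. *Kmt2a*, a trithorax methyltransferase, was at 81.3 CPM in FAP-like and 143 CPM in MuSC-like cells, and the demethylase gene *Kdm6b* at 105 and 167 CPM.

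Among other regulators of position, *Prrx1*, a limb and body wall mesenchyme factor, was at 242 CPM in FAP-like, 185 CPM in mural cell-like and 17.0 CPM in mesothelial-like cells, and *Meox1* at 106 CPM in FAP-like and 209 CPM in lymphatic-like cells. *Meox2* was at 36.1 CPM in FAP-like and 159 CPM in endothelial-like cells. Of 13 genes tested in this list, 5 were higher and 6 lower in FAP-like than in MuSC-like cells, 6 and 2 against mesothelial-like, 2 and 3 against mural cell-like, 6 and 4 against endothelial-like, 7 and 2 against lymphatic-like and 10 and 1 against macrophage-like cells. Of all genes 30.6% and 26.5% were higher and lower against MuSC-like cells and 34.6% and 33.6% against macrophage-like cells. The median of the list against MuSC-like cells, -1 on the log2 scale, was -0.14 without 1 gene that had at most 3 counts in both classes.

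Of the 17 tested genes of the diaphragm development list 11 were higher and 5 lower in FAP-like than in MuSC-like cells, 7 and 5 against mesothelial-like, 10 and 1 against mural cell-like, 11 and 4 against endothelial-like, 10 and 4 against lymphatic-like and 12 and 3 against macrophage-like cells. Of all genes 30.6% and 26.5% were higher and lower against MuSC-like, 15.1% and 14.5% against mural cell-like and 20.2% and 18% against lymphatic-like cells. The median of the list was 1.24 on the log2 scale against MuSC-like cells, where that of all genes was 0.08. The list holds *Tcf4*, at 473 CPM in FAP-like cells, which is not the gene of the connective tissue factor known as TCF4, the product of *Tcf7l2*. Without *Tcf4*, 16 genes were tested, and the counts became 6 and 5 against mesothelial-like, 9 and 1 against mural cell-like and 11 and 3 against macrophage-like cells, those against the other classes did not change, and the median against MuSC-like cells was 1.48. Other values in FAP-like cells were 164 CPM for *Lox*, 142 CPM for *Slit3* and 123 CPM for *Tcf7l2*. *Osr1* of this list is also a marker by which the FAP-like class was named. Its difference between classes is therefore partly set by the naming. It stays in the counts and medians given here, and none was made without it.

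Next to the *Hoxd* cluster, *Mtx2* was at 38.1 CPM in FAP-like and 41.5 CPM in lymphatic-like cells, and *Lnpk* at 23.4 and 14 CPM, both singled out after their values were seen (adjusted p = 1 and 0.0235, edgeR). Of the 10 flanking genes tested 3 were higher and 1 lower in FAP-like than in lymphatic-like cells, 2 and 3 against MuSC-like, 1 and 4 against mesothelial-like, 1 and 2 against mural cell-like, 4 and 1 against endothelial-like and 4 and 5 against macrophage-like cells. Of all genes 20.2% and 18% were higher and lower against lymphatic-like cells and 30.6% and 26.5% against MuSC-like cells, near the counts of the list. The fitted median of the list was 0.18 on the log2 scale against lymphatic-like and -0.06 against MuSC-like cells, and -0.06 and -0.24 with *Skap1*, which had no UMI in either, set at 3 counts there. Values in FAP-like cells were 150 CPM for *Atp5g3*, 138 CPM for *Hnrnpa1*, 120 CPM for *Cbx5* and 51.4 CPM for *Hibadh*.

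Among FAP states the counts of calls were 4 of 5 for the noncoding RNAs, 6 of 9 for the TALE cofactors, 12 of 18 for the Polycomb and trithorax genes, 11 of 12 for the retinoic acid pathway, 11 of 14 for other regulators of position, 16 of 16 for diaphragm development (15 of 15 without *Tcf4*) and 7 of 10 for the flanking genes, where 62.4% of all genes were called. In that fit *Meis2* was highest in the FAP4-like state and lowest in the FAP2-like state. *Aldh1a2* was highest in the *C4b* and *Il6* state and lowest in the FAP4-like state, with a range of 5.01 on the log2 scale (adjusted p = 1.46e-12, edgeR). The counts for diaphragm development hold *Osr1*, which is also a FAP marker.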

How the data were processed

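Per the labels, libraries were made with a 10x Genomics 3′ kit and processed with Cell Ranger 6.1.1 against mm10, as the submitters' processing notes give it. The files hold UMI counts per gene and cell, deposited by the authors unnormalized. All 12275 cells were used. They were clustered with scanpy 1.11.5 (2000 variable genes, 30 principal components, 15 neighbors, Leiden resolution 1), which gave 29 clusters. *Hox* genes and listed genes were left out of the genes clustered, except for listed genes that are also class markers, such as *Osr1*. Each cluster was named by its best marker list, that with the highest mean log2 ratio to other clusters, among lists at 1 or more of which at least 3 markers were detected. Left unnamed were a cluster led by cycling genes and any whose median UMI count was more than 3 times below that of its libraries with none of the list's markers among its 10 leading genes. This threshold was set while clusters were examined. By that rule 2 clusters joined the FAP-like class although another list scored higher with too few markers detected, 1 of 1063 cells (tenocyte 1.89 with 2 markers, FAP 1.7) and 1 of 481 cells (adipocyte 1.6 with 0, FAP 1.58). In all 573 cells stayed unnamed, among them 122 led by cycling genes and 283 of low depth led by mitochondrial genes (endothelial 1.16). Scrublet marked 1.09 to 1.33% of cells as doublets, which were kept and removed in an alternative. FAP states came from k-means with 5 groups.

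UMIs were summed per library and class or state and fitted in edgeR 4.0.16 (R 4.3.3) with TMM factors, its filter on low counts and library as a block, with Benjamini-Hochberg adjustment over all genes and a threshold of 0.05. The fits were also run on simulated data, with the outcome not reported here. Libraries were compared by ratios of CPM in genes with at least 100 UMIs, with no test. Intervals are exact at 95% and cover counting error alone. Totals of 31967976 to 36478779 UMIs per library limit low genes. The members, lists and tests were chosen with earlier results of these data known. Named members have at least 10 CPM in FAP-like cells or another named class of at least 100 cells. Of each list at most 4 genes with the highest level in FAP-like cells were named, besides *Osr1*, *Skap1* and those said to be singled out. The contrast with lymphatic-like cells was added after the levels were seen, and that with tenocyte-like cells could not be fitted, since KO HFD had 19 such cells, under the minimum of 20. Alternatives were DESeq2 1.42.0, no TMM, no filter, gating by markers, stricter cell filters, other numbers of states and leaving out each library. Single values of some listed genes are not reported here.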

Additional observations from a re-analysis of the deposited data

Results flagged for a closer look

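*Hoxb6* moved in opposite directions between WT HFD and WT CD in 2 classes, on few UMIs. In MuSC-like cells it had 10 UMIs in WT HFD and 1 in WT CD (log2 ratio of CPM 3.55, counting interval 0.74 to 8.99), and in endothelial-like cells 1 and 9 (log2 ratio -3.04, -8.49 to -0.19). The difference between the classes was not tested, each group is 1 library, and the pair was singled out from 377 ratios after their values were seen.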

How the results depend on the processing

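No paired analysis was possible because each diet and genotype group has 1 library. Classes and states were compared within libraries, with library as a block in each fit. Of 66 calls of single members, 47 kept direction and significance under every alternative that gave a value, and 1 reversed, *Hoxb7* in FAP-like against mural cell-like cells, at a log2 difference of 1.08 when cells were gated by markers. Leaving out 1 library at a time gave 5 to 8 calls against mesothelial-like cells (9 with all libraries), 0 to 2 against mural cell-like cells (3), 3 to 5 against endothelial-like cells (6) and 10 to 14 among FAP states (16). The lowest counts came without WT HFD (mesothelial-like, mural cell-like) and without KO HFD (endothelial-like, states). Gating by markers gave 0 calls against mural cell-like cells. With no filter on low counts 11 members were called against endothelial-like cells, and with only the 2 classes in the fit 12 were, and 17 against lymphatic-like cells (11); more members were tested there. After thinning to 3000 UMIs, the share of FAP-like cells with a UMI was 8.35% for *Hoxb2*, 6.05% for *Hoxa5*, 6.47% for *Hoxb4* and 5.35% for *Hoxc4*, where fewer UMIs per cell are read by construction. For the other results that changed, the cause was not tested. Members under 10 UMIs, 14 in number, are limited by depth.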
